A study of Nannochloropsis oceanica with 6 samples.

Results

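The lipid droplet surface protein of the marine microalga Nannochloropsis oceanica, strain CCMP1779, is carried by 1 of the 10641 gene models in the deposited table. It was found by protein 591558’s identifier, and it is the 1 model that the table describes by that name. Messenger RNA was sequenced from 2 libraries of cells given a blue pulse, 2 given a red pulse and 2 kept dark. All cultures had grown in 12 h of light (30 µmol s−1 m−2) and 12 h of dark at 22 °C. They entered darkness at zeitgeber time 12 h and stayed there for 36 h. The pulses lasted 5 min at 20 µmol s−1 m−2, the third group received none, and all cells stood dark for 15 min more before harvest. Replicates are numbered in the labels without a statement that they were separate cultures, so the p-values rest on differences among these libraries, which could be technical.

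Lipid droplets are the compartments in which eustigmatophyte algae such as Nannochloropsis store triacylglycerol. A core of neutral lipid is wrapped in a single layer of phospholipids, and proteins with a hydrophobic stretch sit in that layer. The lipid droplet surface protein (LDSP) is known as a main protein of the droplet coat in Nannochloropsis, where it plays the structural part that oleosins play in plant seeds. It is known to accumulate with triacylglycerol when nitrogen runs out.

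The LDSP model lies on scaffold 12 of the Nanoce1779_2 annotation, from 588642 to 590116 on the minus strand, a span of 1475 bases. It overlaps 1 other model, 647864, which runs the opposite way from 581568 to 589781 on the plus strand. Its annotation places it in the class of PEP5/VPS11, a subunit of the complexes that tether membranes to the vacuole. The overlap covers 1140 bases, which are 77.3% of the LDSP span and 13.9% of the span of 647864, and the authors' table puts both models in 1 locus. The libraries were strand-specific, but whether reads were counted by strand is not stated in the labels. If they were not, reads of the shared stretch cannot be told apart, so the levels of both models carry that uncertainty. In all, 4038 of the 10635 models with values overlap another model.

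LDSP was highest after the blue pulse. It stood at 616 and 654 FPKM (fragments scaled to transcript length and to library size) in blue-pulsed libraries, 130 and 116 FPKM in red-pulsed libraries, and 93.6 and 92.2 FPKM in dark libraries. The ranges of the 3 groups did not overlap, and both blue libraries stood far above the other four. The means were 635 ± 26.8 FPKM after blue light, 123 ± 9.63 FPKM after red light and 92.9 ± 1.01 FPKM in the dark (SD, n = 2 each). In TPM, which scales each library to the same total, LDSP held 986.5 and 988 TPM in blue, 221 and 189 TPM in red, and 122 and 120 TPM in dark libraries. That is 0.0987% and 0.0988% of the summed TPM after blue light, 0.0221% and 0.0189% after red light, and 0.0122% and 0.012% in the dark.

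**Figure D1:**
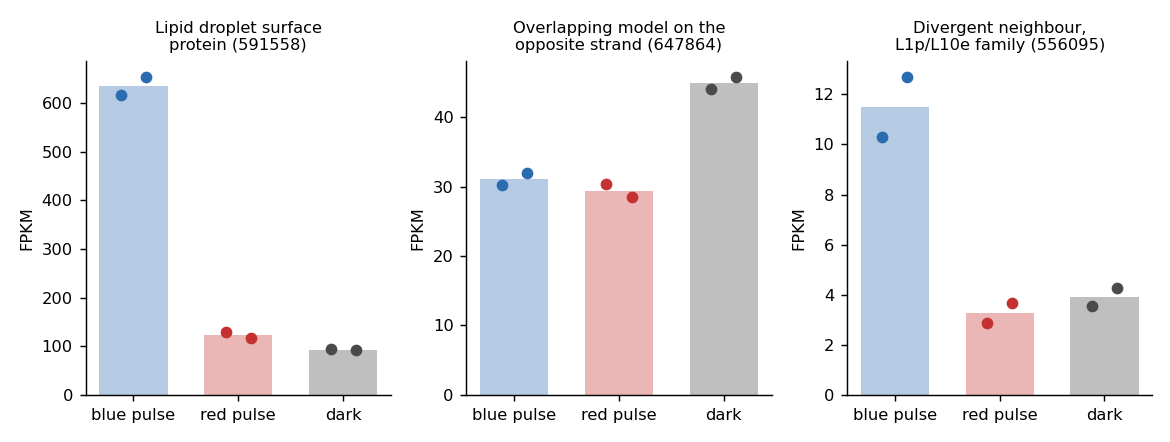
Level in FPKM (vertical axes from 0) of LDSP, of the model that overlaps it and of its divergent neighbour in blue-pulsed, red-pulsed and dark libraries; points are libraries and bars are group means (n = 2). LDSP sits at 616 and 654 FPKM after blue light and at most at 130 FPKM in all other libraries, whereas the overlapping model is highest in the dark.

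Ranked within each library, LDSP was the 107th and 116th most abundant of 10635 models after blue light. It was at rank 1044 and 1270 after red light and at rank 1706 and 1736 in the dark. It thus exceeded 99.0% and 98.9% of models in blue libraries, 90.2% and 88.1% in red libraries, and 84.0% and 83.7% in dark libraries.

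The files hold no counts, but steps between low FPKM values gave relative depths. With dark replicate 1 set to 1, the fragments behind 1 FPKM were 1.66 and 1.20 in blue, 1.69 and 1.33 in red, and 1.09 in dark replicate 2. A line of fragments against length, which held 360 of 820 low models with whole-number steps (within 0.04), then gave an estimate for LDSP. If the model has no intron, about 22019 and 16809 fragments lay behind its blue values, 4720 and 3321 behind its red values, and 2011 and 2157 behind its dark values. Counting error alone would then be at most 2.23% of a value. An intron would lower these estimates.

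The first comparison asked what the blue pulse changed. LDSP rose 6.84-fold in mean FPKM (log2 change 2.76, SE 0.086, 95% interval 2.56 to 2.96, limma adjusted p = 1.37e-08), and 8.16-fold in mean TPM. Both blue libraries were above both dark libraries. This was the 152nd largest rise among the 9087 models tested. All tested models together had a median change of 0.05 log2 in this comparison, so LDSP stood 2.71 above it. The authors' deposited table gives a log2 change of 2.77 with q = 0.000177 for this comparison.

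The red pulse was compared with darkness in the same way. LDSP rose 1.33-fold in mean FPKM after red light (log2 change 0.40, SE 0.086, 95% interval 0.21 to 0.60, limma adjusted p = 0.00295) and 1.69-fold in mean TPM. Both red libraries were above both dark libraries, by less than the gap to the blue libraries. The change was small among all models, of which 4661 of 9087 changed by at least as much in either direction, LDSP included. In the authors' deposited table the log2 change after red light is 0.41 with q = 0.203, so the authors' test did not pass where limma did. On TPM the log2 change after red light was 0.75 (limma adjusted p = 7.85e-05). Centring each library on its median left 0.24 (adjusted p = 0.0297). These values lay 0.39 and 0.36 above the median of all models on the same scaling.

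Set directly against each other, the pulses differed. LDSP was 5.16-fold higher after blue than after red light in mean FPKM (log2 difference 2.36, SE 0.086, 95% interval 2.16 to 2.55, limma adjusted p = 9.08e-08). On TPM it was 4.82-fold higher. This was the 114th largest difference in this direction among 9087 models.

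The model on the opposite strand, 647864, went the other way. It stood at 30.2 and 31.9 FPKM in blue, 30.3 and 28.5 FPKM in red, and 44.1 and 45.8 FPKM in dark libraries. The pulsed libraries overlapped each other and all lay below the dark ones. It fell after blue light (log2 change −0.52, SE 0.085, limma adjusted p = 0.00039) and after red light (−0.60, SE 0.085, adjusted p = 0.000272). The authors' deposited table has q = 0.11 for blue and q = 0.00512 for red. Between blue and red no difference passed (log2 difference 0.08, 95% interval −0.12 to 0.27, limma adjusted p = 0.489). The ratio of LDSP to 647864 in FPKM was 20.4 and 20.5 in blue, 4.29 and 4.09 in red, and 2.12 and 2.01 in dark libraries.

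Around LDSP, 6 models were examined, the nearest 3 by start on either side, 647864 among them. After blue light 4 of the 6 rose and 2 fell on FPKM, beside 39.9% of the whole tested table rising and 36.2% falling. On TPM 4 rose and 1 fell, and 3 rose and 2 fell with median centring or quantile normalization. After red light 1 rose and 2 fell on FPKM, against 33.7% and 29.5% of all models, whereas 3 rose and 1 fell on TPM and 0 rose and 2 fell with median centring. In blue against red, 3 were higher and 0 lower on FPKM, against 27.0% and 23.7% of all models. On TPM, with median centring and with quantile normalization, 2 were higher and 0 lower. With so few neighbours these shares are a description only.

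The neighbour at the 5′ side of LDSP, 556095, is transcribed away from it, and 732 bases separate the 2 models. It is annotated with the ribosomal protein L1p/L10e family and with a domain named for ribosomal protein L1 and ribosomal biogenesis proteins. It had 10.3 and 12.7 FPKM in blue, 2.89 and 3.65 FPKM in red, and 3.55 and 4.28 FPKM in dark libraries. The blue libraries stood apart, while red and dark overlapped. It rose after blue light (log2 change 1.34, SE 0.149, limma adjusted p = 3.05e-05), and its log2 change after red light was −0.20 (95% interval −0.54 to 0.13, adjusted p = 0.259). Blue and red differed by 1.54 log2 (adjusted p = 3.59e-05). LDSP and this divergent model thus both rose after blue light, LDSP by more.

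Further along the 5′ side, a proteasome beta subunit (591565) had 56.9 and 60.5 FPKM in blue, 59.9 and 52.5 FPKM in red, and 75.5 and 77.1 FPKM in dark libraries. It fell after blue (−0.37 log2, limma adjusted p = 0.00414) and red light (−0.44, adjusted p = 0.00233), and neither fall passed on TPM (−0.12 and −0.09). A signal peptidase model (591570), of the class that cuts export signals from new proteins, was near 3 FPKM throughout, and its call after blue light (0.38 log2, adjusted p = 0.037) was lost without any 1 of 5 libraries, blue replicate 1 being the exception, and neither median centring (adjusted p = 0.482) nor quantile normalization (adjusted p = 0.0542) kept it.

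On the 3′ side, a model with a domain of unknown function (591546) had 33.9 and 44.7 FPKM in blue, 3.88 and 3.50 FPKM in red, and 3.04 and 3.30 FPKM in dark libraries. It lies 7402 bases from LDSP. It rose after blue light (log2 change 3.26, SE 0.14, limma adjusted p = 8.3e-08) with a change of 0.17 after red light (adjusted p = 0.32; 0.47 on TPM, adjusted p = 0.0161). The next model, 54852, rose after both pulses (0.86 and 0.47 log2, limma adjusted p = 0.0002 and 0.0106). The red call of 54852 was lost without red replicate 2 (adjusted p = 0.0906) or dark replicate 2 (adjusted p = 0.0797). Neither median centring (adjusted p = 0.0702) nor quantile normalization (adjusted p = 0.0895) kept it. In the authors' deposited table neither of its changes passed (q = 0.399 for blue and 0.0964 for red). It overlaps a fatty acid desaturase, 591536, an enzyme class that puts double bonds into acyl chains. That desaturase, 12200 bases from LDSP and named after its values were seen, had 569 and 741 FPKM in blue, 4.65 and 5.42 FPKM in red, and 1.62 and 2.02 FPKM in dark libraries.

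**Figure D2:**
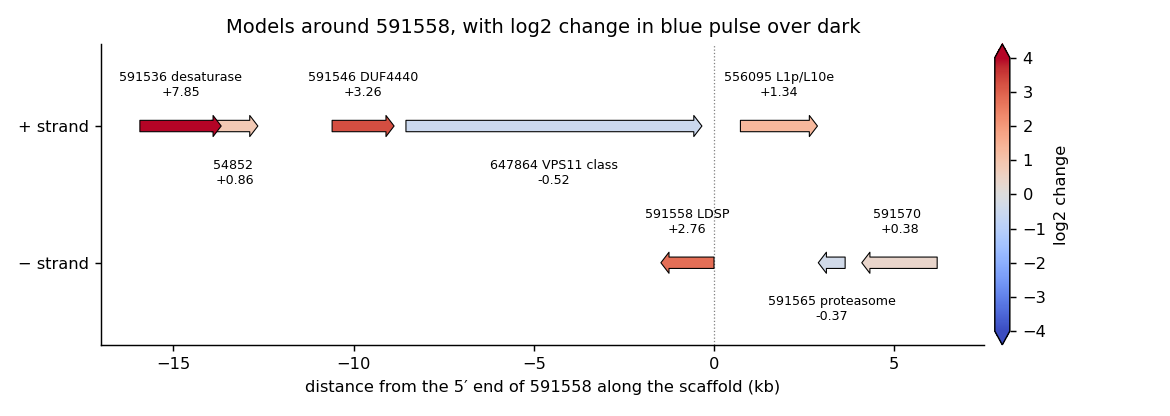
Models around LDSP drawn to scale by strand, with distance from the 5′ end of LDSP in kb on the horizontal axis and colour and number giving the log2 change in blue pulse over dark. LDSP (+2.76) lies under the end of 647864 (−0.52), with the divergent L1p/L10e model (+1.34) 732 bases away.

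The models whose profile over the 6 libraries was most like that of LDSP were ranked by the root mean square difference of log2(FPKM + 1), each model centred on its own mean. Of 9085 models ranked, 25 lay within 0.2 log2, 11 of them among the 3985 models with a description. Their likeness is a matter of how they were picked, and no test was made of it. The nearest was a fatty acid desaturase with a cytochrome b5 domain, of the class that makes delta-6 double bonds (532233; scaffold 23, 307016 to 308632), at 0.094 log2. It had 44.1 and 48.9 FPKM in blue, 8.20 and 8.67 FPKM in red, and 5.55 and 5.35 FPKM in dark libraries. Its level in FPKM was thus below that of LDSP in every library, with nearly the same spacing between groups.

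A steroid 5-alpha reductase model (591677), which is on scaffold 12 as well and overlaps another model, followed at 0.109. It stood at 226 and 264 FPKM in blue, 42.8 and 43.6 FPKM in red, and 39.3 and 34.8 FPKM in dark libraries. An ABC transporter of the pleiotropic drug resistance class (559813) came next at 0.114, and an AAA-type ATPase (556348, overlapping) at 0.123. Pyruvate kinase (615861), which makes pyruvate at the end of glycolysis, was at 0.135 with 114 and 127 FPKM in blue, 18.7 and 18.0 FPKM in red, and 13.8 and 14.2 FPKM in dark libraries. A phosphate transporter of the major facilitator family (630024) was at 0.135 too. Leucyl-tRNA synthetase (525612), which loads leucine onto its tRNA, stood at 0.163, and a DPM2 family model (581007), a regulator of dolichol phosphate mannose synthesis, at 0.17.

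**Figure D3:**
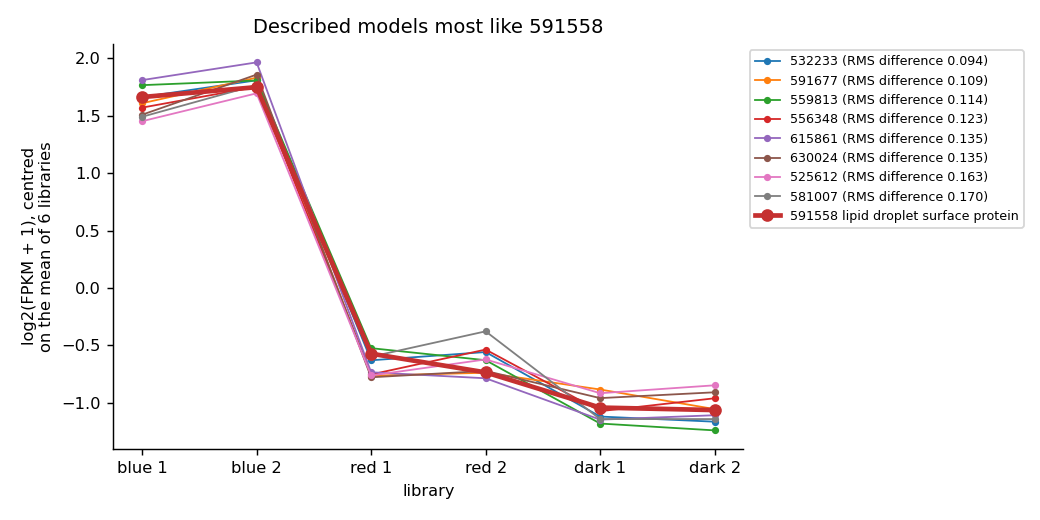
log2(FPKM + 1) of LDSP (thick line) and the 8 described models most like it, each centred on its mean over the 6 libraries shown on the horizontal axis. All 9 lines are high in the blue libraries and low in red and dark, the nearest differing from LDSP by 0.094 log2.

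The rest of the droplet pathway was taken as 3 lists matched by words in the descriptions. Triacylglycerol assembly, the acylation of glycerol phosphate up to storage lipid, had 35 models, of which 31 passed the filter on low values. After blue light 13 rose and 13 fell on FPKM, with a median log2 change of −0.09, near the 39.9% and 36.2% of all tested models. The balance depended on the scaling, with 14 up and 8 down of 32 on TPM and 10 up and 17 down with median centring. After red light 14 rose and 7 fell on FPKM, beside 33.7% and 29.5% of all models. The counts were 22 and 4 on TPM and 9 and 10 with median centring. In blue against red, 11 were higher and 12 lower, against 27.0% and 23.7% of all models. None of the 31 rose as much as LDSP after blue light, the largest rise being 2.35 log2, whereas 8 had a larger change than LDSP after red light. The median of all models was 0.05 after blue and 0.04 after red light.

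Models described with the words diacylglycerol acyltransferase were 15 of these models, 13 of them tested. Enzymes of that name add the last acyl chain of triacylglycerol, but the words also matched broader classes. Models 530913 and 609072 are of the lecithin:cholesterol or phospholipid:diacylglycerol type. Model 277447 is of a class shared with sterol O-acyltransferases, and 584523 is described as a mono- or diacylglycerol acyltransferase. After blue light 5 of the 13 rose and 7 fell on FPKM. The counts were 5 and 3 of 14 on TPM, and 5 and 8 with median centring or quantile normalization. After red light 7 rose and 3 fell on FPKM. These were 8 and 3 of 14 on TPM, 4 and 5 with median centring, and 5 and 5 with quantile normalization. Over all tested models on FPKM the shares were 39.9% and 36.2% after blue light and 33.7% and 29.5% after red light. The largest rise was in 641239, which overlaps another model and had 42.1 and 57.9 FPKM in blue, 27.9 and 27.0 FPKM in red, and 9.22 and 8.59 FPKM in dark libraries (log2 changes 2.35 and 1.52 for blue and red over dark, limma adjusted p = 5.23e-07 and 1.86e-05). Unlike LDSP, this model stood well above dark after red light too. Model 627607 (overlapping) had 21.7 and 23.2 FPKM in blue, 9.53 and 8.95 FPKM in red, and 7.12 and 7.49 FPKM in dark libraries. It rose after blue light (1.50 log2, adjusted p = 1.06e-06).

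Diacylglycerol acyltransferase 2 (545914) had 33.5 and 40.2 FPKM in blue, 25.0 and 22.5 FPKM in red, and 16.1 and 17.1 FPKM in dark libraries, and rose after both pulses (1.10 and 0.49 log2, limma adjusted p = 1.46e-05 and 0.00372). Model 584523 had 9.98 and 10.4 FPKM in blue, 24.7 and 30.3 FPKM in red, and 10.6 and 10.9 FPKM in dark libraries. It rose after red light (1.27 log2, adjusted p = 1.74e-05) and did not pass after blue light (−0.07 log2, 95% interval −0.33 to 0.18, adjusted p = 0.569), though its blue change depended on the scaling and was called with quantile normalization (−0.35) and median centring (−0.34). An acyltransferase of the lecithin:cholesterol or phospholipid:diacylglycerol type (530913), which takes its acyl chain from a phospholipid, fell to 84.1 and 83.2 FPKM in blue and 102 and 109 FPKM in red, against 168 and 165 FPKM in dark libraries (−0.99 and −0.66 log2, adjusted p = 3.07e-06 and 8.59e-05). Model 580578 fell by 1.13 log2 after red light (adjusted p = 3.87e-05). After blue light 585351, 580578, 277447 and 583020 were called lower (−0.74, −0.46, −0.37 and −0.25 log2). Of these falls, those of 580578, 277447 and 583020 did not pass on TPM (adjusted p = 0.0829, 0.2 and 0.972). Models 609072 and 577324 were called higher after blue light (1.26 and 0.66 log2). The acyltransferases thus differed in direction among themselves.

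**Figure D4:**
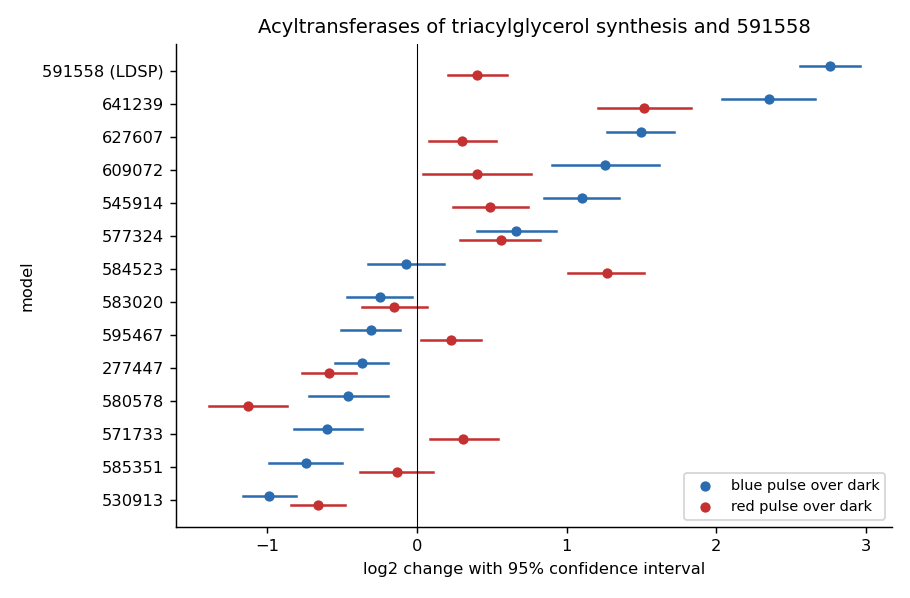
log2 change of the 13 tested diacylglycerol acyltransferase models and of LDSP (vertical axis) after the blue and the red pulse, each over dark; points are limma estimates and lines their 95% confidence intervals. LDSP has the largest blue estimate (2.76), and the red estimate of 641239 (1.52) is above that of LDSP (0.40).

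Among the other members of the list, a phospholipid/glycerol acyltransferase (601076, overlapping) rose after blue light to 45.1 and 57.6 FPKM, against 10.1 and 12.0 FPKM in dark libraries (2.11 log2, limma adjusted p = 6.74e-07). The most abundant member, a lysophosphatidic acid acyltransferase (592720), fell to 118 and 119 FPKM in blue, against 283 and 288 FPKM in dark libraries (−1.26 log2, adjusted p = 8.79e-07). An SH3 domain model (578878) was matched through the words lysophosphatidic acid acyltransferase in its class name, which is that of an endophilin. It fell by 1.72 log2 after blue light (adjusted p = 1.53e-07). Without it 13 of 30 rose and 12 fell after blue light.

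The second list was matched by words for lipases, a class that includes enzymes releasing acyl chains from storage lipid, and for droplet proteins. It had 45 models and 36 tested. Whether the lipase models act on storage lipid or at droplets was not tested. After blue light 6 rose and 22 fell on FPKM, with a median log2 change of −0.59, beside 39.9% of all models rising and 36.2% falling. The counts were 10 and 19 on TPM and 5 and 27 with median centring. After red light 8 rose and 18 fell on FPKM, against 33.7% and 29.5% of all models, whereas 14 rose and 5 fell on TPM. With median centring 4 rose and 23 fell. In blue against red, 5 were higher and 17 lower, against 27.0% and 23.7% of all models. None of the 36 rose as much as LDSP after blue light, the highest change being 1.35 log2, and 8 had a larger change than LDSP after red light. A patatin model (667599, overlapping), of the family to which triacylglycerol lipases belong, fell to 74.0 and 76.0 FPKM in blue and 91.1 and 93.8 FPKM in red, against 197 and 203 FPKM in dark libraries (−1.40 and −1.10 log2, limma adjusted p = 3.24e-07 and 4.05e-06).

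A DUF676 esterase model (546439) fell to 87.7 and 96.0 FPKM in blue, against 232 and 248 FPKM in dark libraries (−1.38 log2, limma adjusted p = 6.27e-07). Its fall after red light (−0.35 log2, adjusted p = 0.00548) was 0.00 on TPM, and was lost without dark replicate 2 (adjusted p = 0.0813) or under quantile normalization (adjusted p = 0.446). A lipase class model with a C2 domain (588568, overlapping) had 6.43 and 0.281 FPKM in blue, against 59.7 and 55.3 FPKM in dark libraries, so its 2 blue values lay far apart. A FYVE domain model of a lipase class (555647) fell by 0.78 log2 after blue light (adjusted p = 4.4e-05). A putative monoglyceride lipase (595519, overlapping), which would act on the last acyl chain, had 178 and 195 FPKM in blue, 183 and 196 FPKM in red, and 224 and 214 FPKM in dark libraries. Its call after blue light (−0.23 log2, adjusted p = 0.0329) was lost on TPM, where the change was 0.02, with quantile normalization (adjusted p = 0.367), with no trend in the variance (adjusted p = 0.0525), and when blue replicate 1 (adjusted p = 0.11) or either dark library (adjusted p = 0.217 and 0.108) was left out.

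The other models annotated as droplet proteins, described here after their values were seen, did not share the large rise of LDSP after blue light. Seipin (275603, overlapping), which acts where droplets form on the endoplasmic reticulum, had 19.9 and 20.1 FPKM in blue, 16.8 and 16.4 FPKM in red, and 20.0 and 20.0 FPKM in dark libraries. Its log2 change after blue light was 0.00 (95% interval −0.20 to 0.20, limma adjusted p = 0.988), but its sign turned with the scaling, at 0.25 on TPM and −0.26 with median centring. Caleosins are calcium-binding droplet proteins, best known from plants. One caleosin model (602807) had 2.99 and 3.03 FPKM in blue, 1.97 and 2.13 FPKM in red, and 2.45 and 2.87 FPKM in dark libraries (0.13 log2 for blue over dark, 95% interval −0.16 to 0.43, adjusted p = 0.372). A second caleosin model (602806), which overlaps the first on the same strand, was at 1.22 FPKM or less in every library and was not tested. The intervals of seipin and the tested caleosin after blue light end far below that of LDSP, which begins at 2.56, though the difference between models was not itself tested. In blue against red, seipin and this caleosin were called higher (0.26 and 0.39 log2, limma adjusted p = 0.0331 and 0.0322), LDSP by 2.36 log2. Neither of these 2 smaller calls held on TPM (adjusted p = 0.159 and 0.0666).

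Beta oxidation, the stepwise breakdown of acyl chains, had 33 models and 30 tested. After blue light 6 rose and 19 fell on FPKM, with a median log2 change of −0.45, where 39.9% of all models rose and 36.2% fell. The counts were 10 and 15 on TPM and 5 and 21 with median centring. After red light 6 rose and 15 fell on FPKM, against 33.7% and 29.5% of all models, whereas 13 rose and 7 fell on TPM. In blue against red, 3 were higher and 11 lower, against 27.0% and 23.7% of all models. Among the 30 were 2 models described as thiolase-like and annotated as ketoacyl synthases of fatty acid synthesis; without them 4 of 28 rose and 19 fell after blue light. No member of the 30 rose as much as LDSP after blue light, the highest change being 1.38 log2, and 4 had a larger change than LDSP after red light.

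An isobutyryl-CoA dehydrogenase (575529) fell to 101 and 110 FPKM in blue and 206 and 216 FPKM in red, against 343 and 324 FPKM in dark libraries (−1.65 and −0.66 log2, limma adjusted p = 2.28e-07 and 0.000143). Glutaryl-CoA dehydrogenase (593552) changed by −1.51 and −1.14 log2 after blue and red light (adjusted p = 2.29e-07 and 3.68e-06), and a 3-hydroxyacyl-CoA dehydrogenase (597644, overlapping) changed by −1.85 log2 after blue light (adjusted p = 1.93e-07). The last enzyme stood at 10.3 and 11.0 FPKM in blue, against 41.4 and 40.9 FPKM in dark libraries. A short-chain dehydrogenase (591729) had log2 changes of −3.01 and −2.91 (adjusted p = 1.08e-07 and 5.3e-07). It was matched only through a class name that also covers short-chain alcohol dehydrogenases. Words of the acyl-CoA dehydrogenase family matched 575529 and 593552, whose names point to isobutyryl-CoA and glutaryl-CoA rather than fatty acyl chains. Whether these models act in fatty acid breakdown was not tested. An acyl-CoA dehydrogenase of the very-long-chain class (579551, overlapping) changed least of those named, by −0.43 log2 after blue light (adjusted p = 0.00308; −0.17 on TPM, adjusted p = 0.0589).

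**Figure D5:**
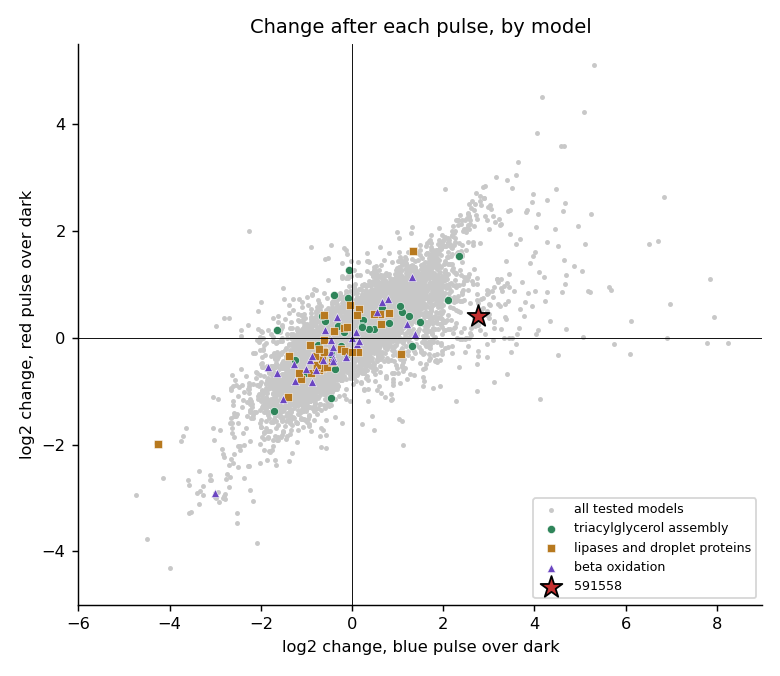
log2 change after the blue pulse (horizontal) and after the red pulse (vertical), both over the same 2 dark libraries, for all tested models (grey), the members of the 3 lists (coloured) and LDSP (star); 2 models lie outside the axes. LDSP is at 2.76 and 0.40, to the right of every list member.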

How the data were processed

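Strand-specific libraries of polyadenylated RNA were made, per the labels' protocols. The tools listed, per the submitters' processing notes, are FastQC, TopHat, Cufflinks, Cuffnorm and Cuffdiff, with no version or order. The deposited table holds FPKM for each library, TPM, which equals FPKM times 1 constant per library (1.30 to 1.70), and the authors' log2 fold changes, p-values and q-values of each pulse against dark, per the file headers. FPKM columns sum to between 588091.6 and 767746.9.

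Models averaging 1 FPKM or more over all 6 libraries (9087 of 10635 with values) were fitted on log2(FPKM + 1) with limma 3.58.1 in R 4.3.3, in 3 groups with 3 residual degrees of freedom and a trended moderated variance, two-sided. Fold changes on this scale understate changes of low models. Benjamini-Hochberg adjusted p under 0.05 over all 9087 models was the threshold. The fit was tested on simulated data. The TPM, scaling, pseudocount, filter, variance, left-out library and replicate alternatives were run as whole fits; narrowed lists and a block on the second number in the titles were added after seeing the data.

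LDSP, its flanking and most alike models, and the lists were chosen with earlier results of these data known. Named list members are the 3 highest in mean and the 3 with the largest blue change, plus the tested diacylglycerol acyltransferases.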

Additional observations from a re-analysis of the deposited data

Results flagged for a closer look

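Among the models named, 2 diacylglycerol acyltransferases were called lower after the blue and higher after the red pulse on FPKM, with the difference between pulses tested directly. Model 571733 had 24.0 and 28.7 FPKM in blue, 49.9 and 50.3 FPKM in red, and 40.0 and 40.2 FPKM in dark libraries (blue against red −0.91 log2, limma adjusted p = 7.26e-05). Model 595467 had 28.0 and 27.2 FPKM in blue, 42.2 and 38.8 FPKM in red, and 35.7 and 33.2 FPKM in dark libraries (blue against red −0.54 log2, adjusted p = 0.000958). The rise after red light was lost for either model with median centring (0.15 and 0.07 log2) and without any 1 red or dark library (adjusted p = 0.0738 to 0.094 for 571733 and 0.0546 to 0.299 for 595467). For 595467 it was also lost with quantile normalization (adjusted p = 0.225) and no trend in the variance (adjusted p = 0.0623), and its fall after blue light was lost on TPM (−0.06 log2, adjusted p = 0.577) and without dark replicate 1 (adjusted p = 0.111).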

How the results depend on the processing

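LDSP kept its direction and its call in all 16 alternatives of each comparison, at 2.49 to 3.02 log2 for blue against dark, 0.24 to 0.75 for red against dark and 2.25 to 2.45 for blue against red. Its highest adjusted p was 9.51e-05, 0.0444 and 0.000331 in these. The overlapping model kept its falls, at −0.79 to −0.28 and −0.76 to −0.26 log2, and its difference between pulses (−0.03 to 0.15) was called in 0 of 16. Ranks were the same among models above the filter, and could not differ, since any model above LDSP in a library passes that filter. Counts of list members moved with the scaling, while the shares over all models printed beside counts are those on FPKM. For blue and red over dark, 7026 and 6441 of 9281 models were called in either direction on TPM. With median centring these were 6943 and 5755 of 9087, and on FPKM 6918 and 5750. The median log2 change of all models was 0.27 and 0.36 on TPM and −0.22 and −0.12 with median centring, for blue and red over dark. On TPM, blue light gave 8 falls in triacylglycerol assembly, and 10 rises each in the lipase and beta oxidation lists. Red light gave 22 rises and 4 falls, 14 rises and 5 falls, and 13 rises and 7 falls in the 3 lists. With median centring, red light gave 9, 4 and 3 rises. With 1 library left out, red light gave 8 to 17 rises in triacylglycerol assembly, 5 to 9 rises and 11 to 19 falls among lipases, and 3 to 6 rises in beta oxidation. Called values that turned, or that were called after turning, were those of 595519 (blue, 0.02 on TPM), 546439 (red, 0.00 on TPM) and seipin 275603 (blue, −0.27 with quantile normalization and −0.26 with median centring; red, 0.08 on TPM). A further 15 of 126 results for single models, in 13 models, changed sign under some alternative without being called in either fit. The cause was not tested.

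The labels number replicates 1 and 2 in each group, but deviations of same-numbered libraries correlated at 0.34 for blue and red, 0.09 for blue and dark and −0.08 for red and dark, so the numbers were not taken to pair the samples. With the replicate number as a block, LDSP stood at 2.76, 0.40 and 2.36 log2 with adjusted p = 3.11e-08, 0.00307 and 2.19e-07. The replicate block changed 1 call among all results recomputed, that of acyltransferase 609072 after red light (0.40 log2, adjusted p = 0.027 against 0.0527). The titles end in a second number, 1 and 3 for blue and dark and 2 and 3 for red, whose meaning is not stated. A block on that number, chosen after seeing the data, leaves red replicate 1 out of every comparison in effect. LDSP then stood at 2.76, 0.31 and 2.45 log2 (adjusted p = 1.22e-06, 0.0444 and 2.96e-05). After red light it gave 7 rises in triacylglycerol assembly and 11 falls among lipases, and 15 results for single models were no longer called, among them the red rise of 545914 (0.33 log2, adjusted p = 0.059).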
